A study of Mus musculus with 16 samples.

Results

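Osteoclasts are the cells that dissolve bone, and the subchondral bone studied here is the plate of bone and marrow space directly under the joint cartilage. The 10 genes described here serve the fusion of osteoclast precursors into multinucleated cells, the receptors and adhesion of the mature cell, and the acid and enzymes it releases onto bone: Dcstamp, Ocstamp, Atp6v0d2, Calcr, Oscar, Itgb3, Tcirg1, Clcn7, Acp5 and Ctsk. Their probes were found by name, as every non-control probe on the array whose gene name is one of the 10. They are 10 of 28250 genes tested and 17 of 43268 probes tested, out of 56605 non-control probes on the array.

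The study hybridised 16 one-colour (Cy3) arrays of RNA from mouse subchondral bone, in 4 groups of 4: DMM joints at 6 weeks, sham joints at 6 weeks, DMM joints at 1 week and sham joints at 1 week after the operation. All animals were wild-type male C57BL6 mice of 10 to 12 weeks at the operation, which was done on both knees. DMM, the destabilization of the medial meniscus, cuts the ligament that holds this meniscus to the tibia and is a model of post-traumatic osteoarthritis. In sham joints the same ligament was exposed and left whole, so that sham joints too had been opened. Bone under the medial tibial plateau was laser-dissected from decalcified 10 µm sections, the sections of 1 joint were pooled, and 100 ng of RNA from 1 joint of each mouse was labelled for 1 array. No joint was left without an operation, and mice at 6 weeks were also older than mice at 1 week, so time after the operation and age cannot be told apart.

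Osteoclasts arise when monocyte and macrophage precursors receive macrophage colony-stimulating factor and RANK ligand, which switch on the transcription factor NFATc1 and with it the genes for fusion and resorption. The mature cell seals itself to bone with integrin-rich podosomes, pumps protons and chloride into the sealed space and secretes proteases that digest the exposed collagen. Subchondral bone is remodelled in osteoarthritis, and osteoclast activity in this plate is part of that process in mouse models.

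Levels are given as log2 of the background-corrected signal minus the 75th percentile of the same array, so that 0 is the signal below which 75% of an array's probes lie. Such a level can be compared between arrays for 1 probe but not between probes. A gene is represented by its brightest probe, differences come from 1 limma model over all 16 arrays, and a gene is called when its p-value, adjusted over all 28250 genes by the Benjamini-Hochberg method, is below 0.05. Arrays had 75th percentile signals of 329 to 873 and between 65.1% and 79.5% of probes well above background by the scanner software. Sham_6wk replicate 2 stood apart from the rest: its signal was the lowest (329, the next lowest being 471) and its score on the first principal component was 177, against -69.6 to 71.7 for the other arrays. Differences of the 10 genes and of their partners that involve sham joints at 6 weeks are therefore also given without that array. The arrays lay on 2 slides of 8, with 2 arrays of each group on each slide.

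All 10 genes were measured in the dissected tissue: the probe that represents each gene was well above background on 16 of 16 arrays. These include Calcr, which codes for the calcitonin receptor and marks late osteoclasts. Because the RNA is from whole bone with its marrow space, fewer osteoclasts and less RNA of a gene per osteoclast cannot be told apart. Of the 10 genes, 7 have a second probe, whose level followed that of the first over the 16 arrays with Pearson's r of 0.96 for Atp6v0d2 and Dcstamp, 0.95 for Oscar, 0.90 for Tcirg1, 0.87 for Calcr and 0.86 for Itgb3. The second Clcn7 probe followed the first with r = 0.18. The second probes of Calcr and Clcn7 were dim, being well above background on 5 and 10 of the 16 arrays, whereas the other 5 second probes were so on all 16.

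Promoter windows are shown for genes whose levels varied together from joint to joint. RefSeq windows on GRCm38.p6, from 250 bases before to 30 bases after an annotated start, were found for 6 of the 10 genes (12 starts), namely Acp5, Ctsk, Calcr, Oscar, Tcirg1 and Clcn7. The motifs searched on both strands, chosen after the windows had been read, were TGANTCA, bound by AP-1 factors such as Fos, TCATGTG, the M-box, and TCACGTG, an E-box, the last 2 being sites of the kind bound by Mitf and Tfe3, which take part in osteoclast gene regulation. Capitals mark the matches. The M-box was found in 2 of 12 windows, against 3.6% of 32851 windows of all genes, the E-box in 1 of 12, against 3.62%, and the AP-1 motif in 0 of 12, against 7.46%. A start of Acp5 (chr9:22130569-22130848, minus strand) has an M-box 90 bases before the start, the first start of Clcn7 (chr17:25133141-25133420, plus strand) has an E-box 16 bases before the start and a palindromic pair of overlapping matches just after it, the second start of Clcn7 (chr17:25136381-25136660, plus strand) has an M-box 42 bases before the start, and the start of Ctsk (chr3:95498960-95499239, plus strand) is shown as a window without a match.
Acp5: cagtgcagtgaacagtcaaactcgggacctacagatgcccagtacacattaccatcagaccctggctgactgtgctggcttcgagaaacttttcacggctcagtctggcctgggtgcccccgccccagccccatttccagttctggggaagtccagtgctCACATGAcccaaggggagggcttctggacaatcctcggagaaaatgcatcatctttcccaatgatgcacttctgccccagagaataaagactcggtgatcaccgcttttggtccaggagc
Clcn7, first start: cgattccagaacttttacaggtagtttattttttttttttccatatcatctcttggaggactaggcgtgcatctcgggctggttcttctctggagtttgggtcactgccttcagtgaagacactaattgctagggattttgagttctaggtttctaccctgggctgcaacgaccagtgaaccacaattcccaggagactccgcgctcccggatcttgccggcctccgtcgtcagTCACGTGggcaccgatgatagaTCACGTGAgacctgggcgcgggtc
Clcn7, second start: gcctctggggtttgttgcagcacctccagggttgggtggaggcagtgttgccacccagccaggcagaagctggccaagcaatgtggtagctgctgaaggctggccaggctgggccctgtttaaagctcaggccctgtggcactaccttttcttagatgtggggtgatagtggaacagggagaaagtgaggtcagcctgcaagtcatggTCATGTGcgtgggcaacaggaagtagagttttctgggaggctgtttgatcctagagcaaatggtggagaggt
Ctsk: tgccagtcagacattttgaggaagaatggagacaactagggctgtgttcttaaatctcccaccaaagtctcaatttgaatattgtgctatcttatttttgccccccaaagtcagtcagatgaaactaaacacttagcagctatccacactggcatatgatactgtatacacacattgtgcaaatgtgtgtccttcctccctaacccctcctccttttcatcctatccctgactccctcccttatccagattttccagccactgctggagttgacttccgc

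Probe sequences of the acid-secreting pump are printed because each gene's second probe gave the same joint-to-joint pattern from another stretch of the transcript. The second Atp6v0d2 probe lies at chr4:19837769-19837828 (minus strand, mm9), and the second Tcirg1 probe matches a genomic span of 133 bases at chr19:3896678-3896810 (minus strand, mm9), so that its 60 bases are split over the genome. The files give these positions on mm9, for which no exon annotation was used here.
Atp6v0d2, second probe: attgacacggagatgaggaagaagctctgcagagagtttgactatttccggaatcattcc
Tcirg1, second probe: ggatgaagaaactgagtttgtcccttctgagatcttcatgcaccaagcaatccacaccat

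Destabilization of the meniscus was not followed by a detectable change in any of the 10 osteoclast genes at either time. The comparison of DMM with sham joints asks whether the transcripts of bone-resorbing cells differ in the bone under a destabilized joint. At 6 weeks 5 of the 10 genes were higher and 5 lower in DMM joints (53.5% of all genes were lower), with a median log2 difference of 0.0020, and at 1 week 7 were higher and 3 lower (49.2% of all genes were lower), with a median of 0.03. In limma none of the 10 was called at 6 weeks or at 1 week (adjusted p = 1.0 for each), and none had an unadjusted p below 0.05. Over all genes tested 0% were called at both times, and the median differences were -0.02 at 6 weeks and 0.0032 at 1 week. At an unadjusted p below 0.05 stood 220 genes (0.779%) at 6 weeks and 273 (0.966%) at 1 week. No gene's DMM and sham arrays were without overlap at 6 weeks (0.365% of all genes lay wholly below and 0.135% wholly above) or at 1 week (0.726% below and 0.372% above).

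**Figure D1:**
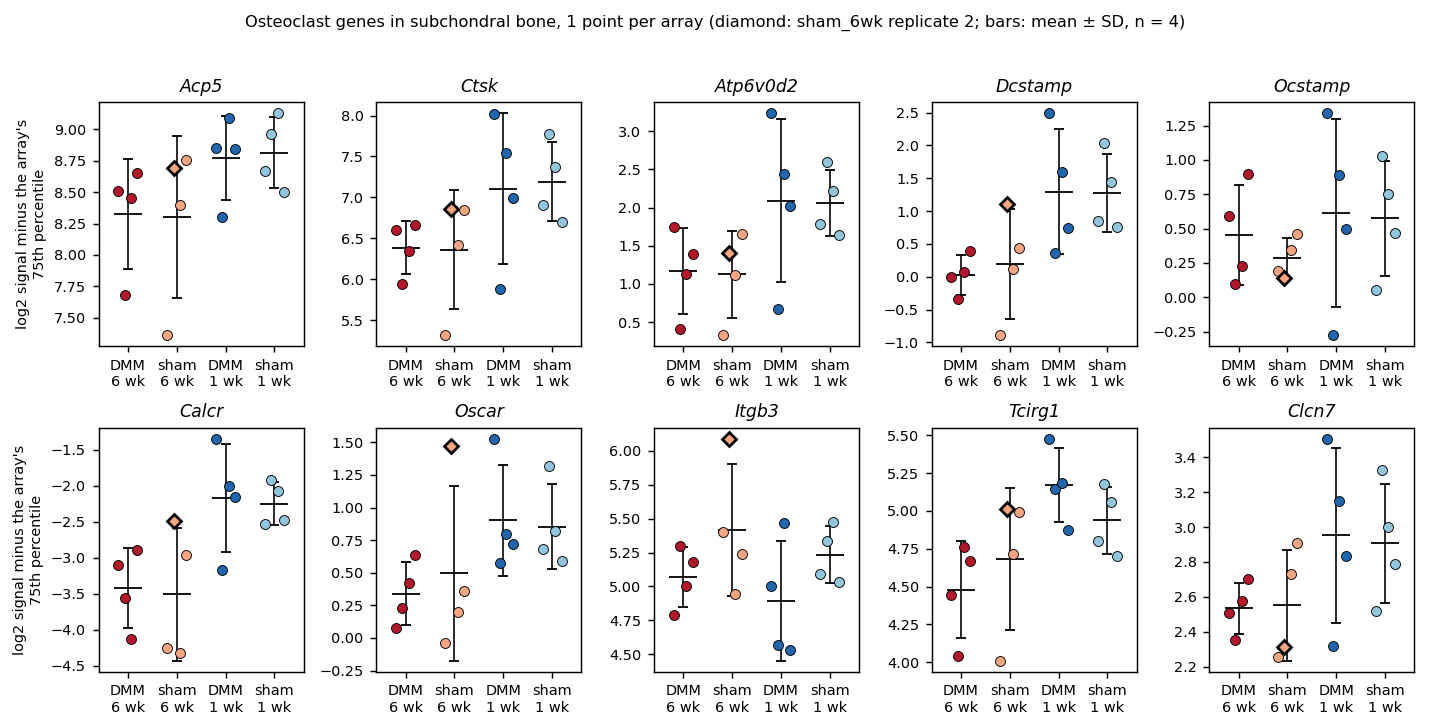
Level of each of the 10 osteoclast genes on each of 16 arrays, as log2 signal minus the array's 75th percentile, with 1 point per array, bars for mean ± SD (n = 4) and a diamond for sham_6wk replicate 2. For Calcr, Dcstamp and Atp6v0d2 most 6-week points lie below most 1-week points, whereas DMM and sham points at the same time lie over each other in every panel.

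The fusion receptors are described first. Dcstamp codes for the dendritic cell-specific transmembrane protein, which precursors need on their surface to fuse, and its probe lies at chr15:39592421-39592480 (plus strand, mm9). At 6 weeks its log2 levels were 0.0010, -0.35, 0.08 and 0.38 in DMM joints, against -0.89, 1.11, 0.12 and 0.44 in sham joints. Both the lowest and the highest value were sham joints, so that the DMM values lay inside the sham range. At 1 week the levels were 2.49, 0.37, 1.60 and 0.74 in DMM joints, against 0.85, 2.03, 1.45 and 0.75 in sham joints. Here the DMM joints spanned the wider range, with replicate 1 the highest and replicate 2 the lowest array of that time. The DMM minus sham difference was -0.17 ± 0.47 (SE, n = 4 each) at 6 weeks and 0.03 ± 0.47 at 1 week, and 0.14 at 6 weeks without sham_6wk replicate 2.

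Ocstamp, the osteoclast stimulatory transmembrane protein and a partner of Dcstamp in fusion, was measured by 1 probe at chr2:165220960-165221019 (minus strand, mm9). Its levels at 6 weeks were 0.59, 0.09, 0.23 and 0.90 in DMM joints, against 0.19, 0.14, 0.35 and 0.46 in sham joints. At 1 week they were 1.34, -0.28, 0.89 and 0.50 in DMM joints, against 0.05, 1.03, 0.75 and 0.47 in sham joints. The groups overlapped at both times, and at 1 week the highest and the lowest array of all were again DMM replicates 1 and 2. The difference was 0.17 ± 0.31 at 6 weeks and 0.04 ± 0.31 at 1 week.

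Atp6v0d2, the d2 isoform of the membrane sector of the proton pump, takes part in precursor fusion as well as in acid secretion, and its probe lies at chr4:19805367-19805426 (minus strand, mm9). The levels at 6 weeks were 1.75, 0.42, 1.13 and 1.39 in DMM joints, against 0.33, 1.40, 1.11 and 1.65 in sham joints. Each group had 1 joint far below its other 3, DMM replicate 2 and sham replicate 1. At 1 week the levels were 3.23, 0.68, 2.43 and 2.01 in DMM joints, against 1.79, 2.60, 2.21 and 1.64 in sham joints. The spread of DMM joints at that time (SD 1.07) was wider than that of sham joints (SD 0.43), a difference in spread that was not tested. The difference between the operations was 0.05 ± 0.46 at 6 weeks and 0.03 ± 0.46 at 1 week.

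Of the receptors, Calcr codes for the calcitonin receptor, through which calcitonin halts resorption, and its probe lies at chr6:3635940-3635999 (minus strand, mm9). At 6 weeks its levels were -3.10, -3.56, -4.13 and -2.89 in DMM joints, against -4.25, -2.50, -4.32 and -2.96 in sham joints. Sham joints split into a low pair, replicates 1 and 3, and a high pair, with 3 of 4 DMM joints between them. At 1 week the levels were -1.35, -3.17, -2.00 and -2.15 in DMM joints, against -2.54, -1.93, -2.07 and -2.47 in sham joints. The difference was 0.09 ± 0.44 at 6 weeks and 0.08 ± 0.44 at 1 week, and 0.42 at 6 weeks without sham_6wk replicate 2, none of them called. The second Calcr probe (chr6:3636882-3636941, minus strand, mm9) was not well above background on any of the 8 arrays of 6 weeks and was so on 5 of the 8 of 1 week.

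Oscar, an immunoglobulin-like receptor that binds collagen and gives osteoclast precursors a costimulatory signal, was read at chr7:3561419-3561478 (minus strand, mm9). Its 6-week levels were 0.08, 0.23, 0.42 and 0.64 in DMM joints, against -0.04, 1.47, 0.20 and 0.36 in sham joints. The value of 1.47 is sham_6wk replicate 2, more than 1 log2 unit above the other sham joints of that time. At 1 week the levels were 1.53, 0.57, 0.80 and 0.72 in DMM joints, against 0.68, 1.32, 0.82 and 0.59 in sham joints. The difference at 6 weeks was -0.16 ± 0.31 with that array and 0.17 without it, and at 1 week it was 0.05 ± 0.31.

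Itgb3 codes for the integrin beta 3 chain, which pairs with the alpha V chain in the podosomes of osteoclasts and with the alpha IIb chain on platelets and megakaryocytes. Its probe lies at chr11:104531672-104531731 (plus strand, mm9). At 6 weeks its levels were 4.79, 5.30, 5.00 and 5.18 in DMM joints, against 5.40, 6.09, 4.94 and 5.24 in sham joints. At 1 week they were 5.01, 4.56, 5.47 and 4.53 in DMM joints, against 5.09, 5.34, 5.48 and 5.03 in sham joints. The groups overlapped at both times, although the mean was lower in DMM joints at both. Itgb3 had the DMM difference farthest from 0 of the 10 genes at both times, -0.35 ± 0.26 at 6 weeks and -0.34 ± 0.26 at 1 week, but it did not pass the test (unadjusted p = 0.194 and 0.204 in limma). Averaged over both times the Itgb3 difference was -0.34 ± 0.18 (95% interval -0.73 to 0.04, unadjusted p = 0.0768, adjusted p = 1.0 in limma), and 7 of 8 DMM joints lay below the mean of the sham joints. That average was -0.23 (95% interval -0.56 to 0.10, unadjusted p = 0.153 in limma) without sham_6wk replicate 2. The 6-week difference shrank to -0.12 without sham_6wk replicate 2 and was -0.70 on slide 1, which holds that array, and 0.00076 on slide 2. Platelet and megakaryocyte markers, from the other cells that use Itgb3, were lower in DMM joints for 5 of 12 genes at 6 weeks (median 0.13), for 11 of 12 at 1 week (median -0.57) and for 12 of 12 averaged over both times (median -0.21), none of them called. Itga2b, the alpha IIb chain, stood at -0.17 ± 0.36 at 6 weeks and -0.61 ± 0.36 at 1 week (adjusted p = 1.0 for both in limma). With sham_6wk replicate 2 left out, 7 of 12 platelet markers were lower at 6 weeks (median -0.02) and 11 of 12 averaged over both times (median -0.30), and Itga2b stood at 0.04 at 6 weeks. The part of these cells in the Itgb3 difference was not tested.

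Acid secretion is served by Tcirg1, the a3 isoform of the proton pump's membrane sector, and Clcn7, the chloride and proton exchanger that acts beside it; loss of either stops resorption. Tcirg1 (chr19:3896062-3896121, minus strand, mm9) had levels of 4.45, 4.04, 4.76 and 4.67 in DMM joints at 6 weeks, against 4.01, 5.01, 4.72 and 5.00 in sham joints. At 1 week its levels were 5.48, 5.15, 5.18 and 4.87 in DMM joints, against 4.80, 5.18, 5.06 and 4.70 in sham joints. Tcirg1 was thus lower in DMM joints by the mean at 6 weeks and higher at 1 week, with overlapping arrays at both times. The differences were -0.21 ± 0.24 and 0.23 ± 0.24. Their own difference, -0.44 ± 0.34 (95% interval -1.16 to 0.28), was the largest of the 10 genes and was not called (unadjusted p = 0.212, adjusted p = 1.0 in limma; 0% of genes were called in that test and 193, or 0.683%, had an unadjusted p below 0.05), and it was -0.33 without sham_6wk replicate 2.

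Clcn7 (chr17:25298967-25299026, plus strand, mm9) had levels of 2.51, 2.35, 2.57 and 2.70 in DMM joints at 6 weeks, against 2.26, 2.31, 2.73 and 2.91 in sham joints. At 1 week the levels were 3.51, 2.32, 3.15 and 2.84 in DMM joints, against 2.52, 3.33, 3.00 and 2.79 in sham joints. DMM joints of 6 weeks were the tightest of the 4 groups (SD 0.15), inside the range of their sham joints. The difference was -0.02 ± 0.25 at 6 weeks and 0.04 ± 0.25 at 1 week. The second Clcn7 probe (chr17:25296248-25296307, plus strand, mm9) read 0.13 in DMM_1wk replicate 4, against -6.38, -4.92 and -4.59 in the other DMM joints of 1 week, a value the first probe did not share.

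The enzymes end the sequence. Ctsk codes for cathepsin K, the protease that digests bone collagen in the sealed space, and was read at chr3:95313165-95313224 (plus strand, mm9). Its levels at 6 weeks were 6.60, 5.94, 6.34 and 6.66 in DMM joints, against 5.32, 6.86, 6.42 and 6.85 in sham joints. At 1 week they were 8.01, 5.88, 7.54 and 6.99 in DMM joints, against 6.91, 7.77, 7.37 and 6.70 in sham joints. As for Atp6v0d2, the extremes of each time were single joints, sham replicate 1 at 6 weeks and DMM replicates 1 and 2 at 1 week. The difference was 0.03 ± 0.43 at 6 weeks and -0.08 ± 0.43 at 1 week.

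Acp5 codes for tartrate-resistant acid phosphatase, the enzyme by which osteoclasts are stained, and was read at chr9:21931190-21931249 (minus strand, mm9). At 6 weeks its levels were 8.51, 7.68, 8.46 and 8.65 in DMM joints, against 7.36, 8.69, 8.40 and 8.76 in sham joints. At 1 week they were 8.85, 8.30, 9.09 and 8.85 in DMM joints, against 8.66, 8.96, 9.13 and 8.50 in sham joints. The groups covered one another at both times. The difference was 0.02 ± 0.31 at 6 weeks and -0.04 ± 0.31 at 1 week.

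The precision of these comparisons, which the number of arrays limits, is given by 95% intervals. At a single time, with 4 arrays a side, that of Dcstamp ran from -1.16 to 0.82 at 6 weeks and -0.97 to 1.02 at 1 week. Calcr had -0.85 to 1.03 and -0.86 to 1.02. Without sham_6wk replicate 2 the 6-week intervals were -0.87 to 1.15 for Dcstamp and -0.49 to 1.34 for Calcr. The intervals of the difference averaged over both times were narrower and are given next. For Acp5 the 95% interval ran from -0.47 to 0.45, for Clcn7 from -0.36 to 0.39, for Tcirg1 from -0.34 to 0.37 and for Ctsk from -0.68 to 0.62. The widest were those of Dcstamp (-0.77 to 0.63), Atp6v0d2 (-0.65 to 0.73) and Calcr (-0.58 to 0.75). Each interval of the averaged difference holds the differences that 8 arrays a side leave possible at 95%. It is not a limit of detection, because a call also requires the adjustment over all genes. With sham_6wk replicate 2 left out, the interval was -0.41 to 0.52 for Acp5, -0.41 to 0.36 for Clcn7, -0.29 to 0.42 for Tcirg1, -0.62 to 0.73 for Ctsk, -0.60 to 0.77 for Dcstamp, -0.65 to 0.83 for Atp6v0d2 and -0.37 to 0.88 for Calcr. The median 6-week difference of the 10 genes was 0.14 without sham_6wk replicate 2, with Ctsk at 0.19, Acp5 at 0.15, Atp6v0d2 at 0.14, Ocstamp at 0.12, Tcirg1 at -0.10 and Clcn7 at -0.10, none of them called. The sign of the 6-week difference was the same on both slides for 4 of 10 genes, and that of the 1-week difference for 3 of 10.

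**Figure D2:**
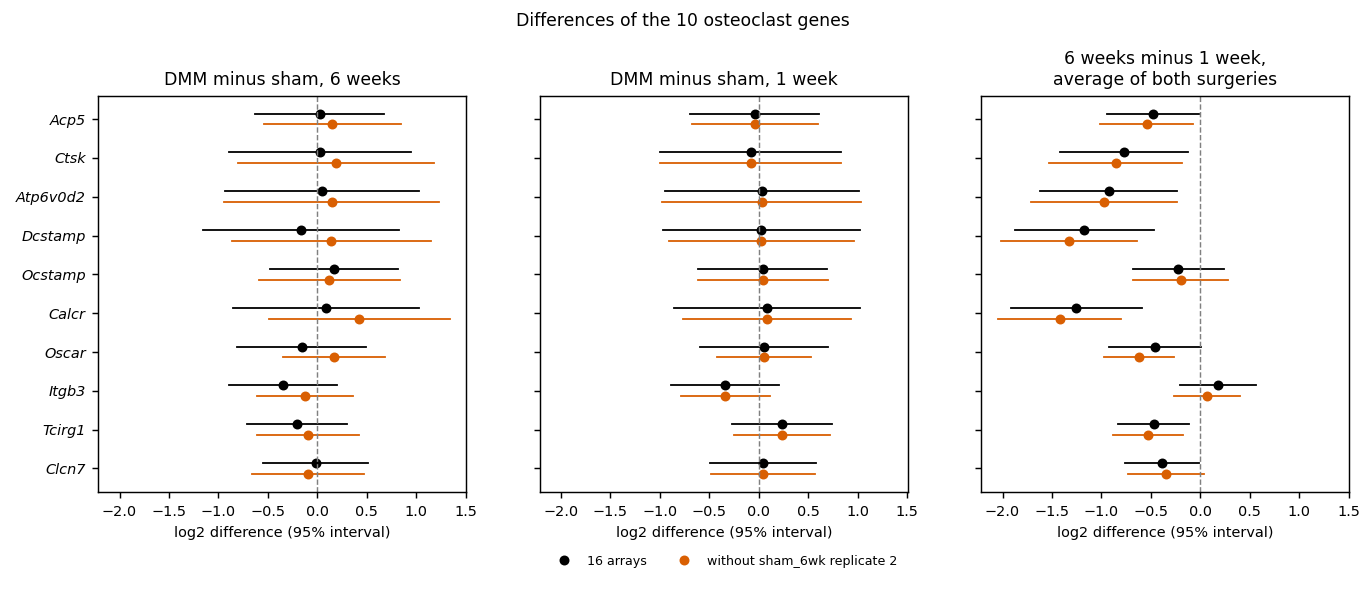
Log2 difference of each of the 10 genes with its 95% interval, for DMM minus sham at 6 weeks, DMM minus sham at 1 week, and 6 weeks minus 1 week averaged over both operations. Black is all 16 arrays and orange is without sham_6wk replicate 2; the intervals of both DMM panels include 0 for all 10 genes, whereas 9 of 10 genes lie below 0 in the time panel.

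The osteoclast genes were lower at 6 weeks than at 1 week, with 9 of the 10 on that side and Itgb3 the exception, but no gene of the 10 passed the test over all genes. The comparison of times asks how the same genes stand late and early after an operation, whichever it was. Averaged over DMM and sham, the median log2 difference of the 10 was -0.48, against 0.04 over all genes tested, and 44.4% of all genes lay below 0. Of all genes, 247 (0.874%) were called in either direction and 66 (0.234%) were called lower. None of the 10 was called, the lowest adjusted p being 0.0649 in limma. At an unadjusted p below 0.05, 7 of the 10 were lower at 6 weeks, against 8.18% of all genes. All 9 were lower on both slides, and the median was -0.70 on slide 1, -0.33 on slide 2 and -0.48 with the slide as a block. These 9 genes varied together from joint to joint, and the 10 were chosen with earlier results of these data known. Counts among the 10, here and below, are therefore descriptions and not separate results that add up.

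Calcr and Dcstamp lay farthest below 0. Calcr averaged -3.42 ± 0.55 in DMM joints and -3.51 ± 0.92 in sham joints at 6 weeks, against -2.17 ± 0.75 in DMM joints and -2.25 ± 0.30 in sham joints at 1 week (SD, n = 4 each). The Calcr difference of -1.25 ± 0.31 is 2.38 times less signal at 6 weeks (adjusted p = 0.0649 in limma), with 8 of 8 joints of 6 weeks below the 1-week mean. It was -1.25 ± 0.44 after DMM and -1.26 ± 0.44 after sham (-1.59 without sham_6wk replicate 2), and -1.11 on slide 1 and -1.40 on slide 2. The times overlapped through DMM_1wk replicate 2, at -3.17, and through sham_6wk replicate 2, at -2.50. Dcstamp averaged 0.03 ± 0.30 in DMM joints and 0.20 ± 0.83 in sham joints at 6 weeks, against 1.30 ± 0.95 in DMM joints and 1.27 ± 0.59 in sham joints at 1 week. Its difference was -1.17 ± 0.33 (adjusted p = 0.0913 in limma), and again 8 of 8 joints of 6 weeks lay below the 1-week mean.

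Of the other fusion genes, Atp6v0d2 averaged 1.17 ± 0.57 in DMM joints and 1.12 ± 0.57 in sham joints at 6 weeks, against 2.09 ± 1.07 in DMM joints and 2.06 ± 0.43 in sham joints at 1 week, a difference of -0.93 ± 0.32 (adjusted p = 0.165 in limma). The interval of Ocstamp's difference, -0.22 ± 0.22, included 0 (-0.68 to 0.24), although Ocstamp is a fusion receptor like Dcstamp. Between these genes the size of the difference was not tested.

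Among the acid and enzyme genes the differences were -0.77 ± 0.30 for Ctsk (adjusted p = 0.219), -0.48 ± 0.22 for Acp5 (0.295), -0.47 ± 0.17 for Tcirg1 (0.171) and -0.39 ± 0.18 for Clcn7 (0.301), all in the same limma fit. Each of these genes had 8 of 8 joints of 6 weeks below the 1-week mean of both operations together. Within DMM joints alone it was 4 of 4 for each. Within sham joints alone it was 4 of 4 for Ctsk and Acp5, 3 of 4 for Clcn7 and 2 of 4 for Tcirg1. Tcirg1 was the 1 gene of the 10 whose arrays did not overlap between times after DMM, its highest 6-week joint (4.76) lying below its lowest 1-week joint (4.87), as was true of 2.43% of all genes. Oscar's difference was -0.46 ± 0.22 (adjusted p = 0.319), with 7 of 8 joints of 6 weeks below the 1-week mean. Itgb3's was 0.18 ± 0.18 (95% interval -0.21 to 0.57), positive on slide 1 (0.40) and -0.04 on slide 2.

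For the 5 genes whose second probe was well above background on all 16 arrays, its time difference had the same sign as that of the first. These differences were -0.84 ± 0.31 for Atp6v0d2, -1.07 ± 0.32 for Dcstamp, -0.63 ± 0.21 for Oscar, -0.50 ± 0.16 for Tcirg1 and 0.33 ± 0.22 for Itgb3, none of them called among 43268 probes. The second Calcr probe averaged -7.20 in DMM joints and -6.91 in sham joints at 6 weeks, not well above background on any array, against -5.66 in DMM joints and -5.31 in sham joints at 1 week. It was well above background on 5 arrays, all of 1 week, and was kept for the fit through these, so that no test and no fold are given for it. The second Clcn7 probe, also dim, gave -0.69 ± 0.67, a value that includes the reading of 0.13 in DMM_1wk replicate 4. Its median was -5.05 at 6 weeks and -4.76 at 1 week, so that it adds no support.

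**Figure D3:**
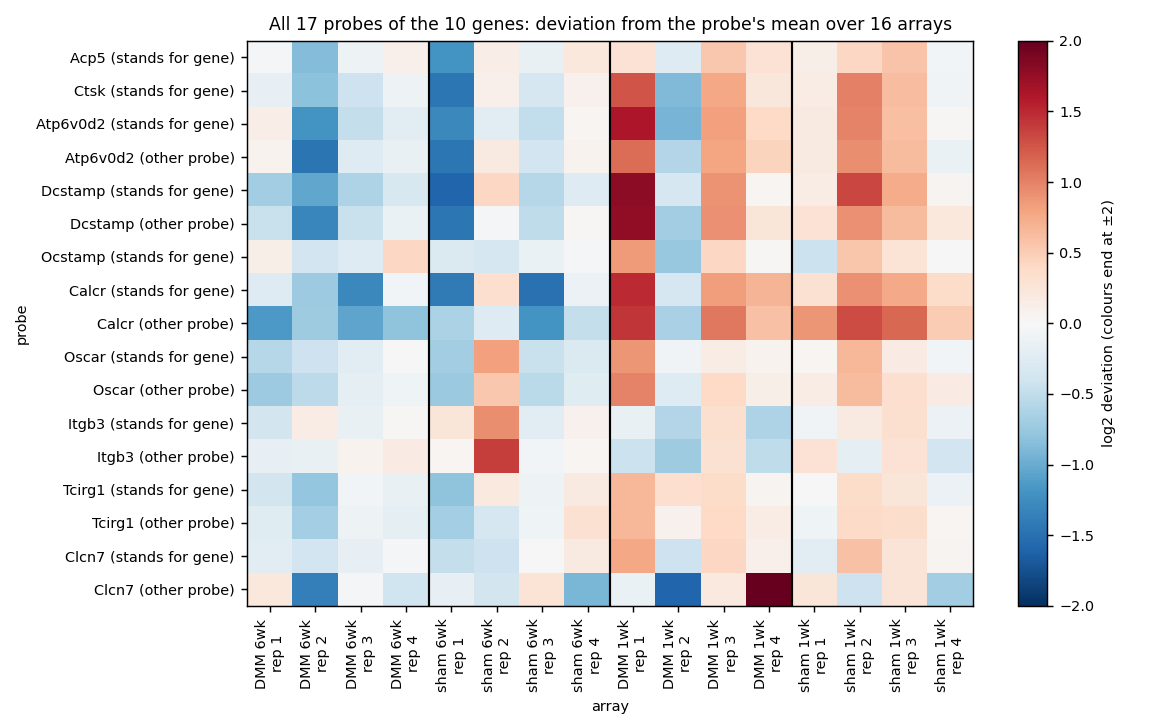
Deviation of each of the 17 probes of the 10 genes from the probe's own mean over 16 arrays (log2, colour), with arrays in columns by group and probes in rows. Most 6-week columns are blue and most 1-week columns red, DMM_1wk replicate 2 is blue in most rows, the Itgb3 rows depart from the others, and the second Clcn7 probe is deep red in DMM_1wk replicate 4.

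Within either operation alone, no gene was called over time. After DMM 9 of 10 genes were lower at 6 weeks (46.4% of all genes), with a median of -0.63 and 3 genes (Calcr, Dcstamp and Tcirg1) at an unadjusted p below 0.05, against 4.79% of all genes lower at that p and 0% called. After sham 9 of 10 were lower (44.8% of all genes), with a median of -0.43 and 2 genes (Calcr and Dcstamp) at an unadjusted p below 0.05, against 3.72% of all genes and 0% called. The lowest adjusted p was 0.338 after DMM and 0.616 after sham in limma. The median after sham was -0.66 without sham_6wk replicate 2, with 10 of 10 genes lower and none called.

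Without sham_6wk replicate 2 the time comparison called 3 of the 10 genes, all lower at 6 weeks, where 1502 of all genes (5.32%) were called and 541 (1.92%) called lower. Calcr was then -1.42 ± 0.29 (adjusted p = 0.0244), Dcstamp -1.32 ± 0.32 (0.0350) and Oscar -0.62 ± 0.16 (0.0440) in limma. Among the 10 genes that array was the highest sham joint of 6 weeks for Calcr, Dcstamp, Oscar, Itgb3, Ctsk and Tcirg1 and the lowest for Ocstamp. The median of the 10 was -0.58 without it. The genes not called then stood at -0.97 for Atp6v0d2, -0.86 for Ctsk, -0.54 for Acp5, -0.53 for Tcirg1, -0.35 for Clcn7, -0.20 for Ocstamp and 0.07 for Itgb3. With all 16 arrays Calcr was the only gene of the 10 called under any other setting tried, at -1.16 (adjusted p = 0.0467) in the authors' deposited table of values, -1.25 (0.0471) when only probes well above background on all 16 arrays were tested and -1.41 (0.0347) as the mean of both probes, all in limma. The last of these averages in the second Calcr probe, which was not well above background on any 6-week array, and so adds no support.

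Markers of other cell types also had medians away from 0 between the times, with few genes past the test. Of the 8 erythroid markers 8 were higher at 6 weeks, with a median log2 difference of 1.14, and Alas2, the first enzyme of heme synthesis in red cell precursors, was called (1.30 ± 0.27, adjusted p = 0.0434 in limma). The mean centred level of the erythroid list ranged from 0.31 to 1.12 in DMM joints and -1.23 to 0.80 in sham joints at 6 weeks, against -1.86 to 0.38 in DMM joints and -1.28 to 0.06 in sham joints at 1 week. Of the 12 platelet and megakaryocyte markers 11 were higher (median 0.82, none called), and of the 8 B cell markers 8 were higher (median 0.62, none called). The platelet list ranged from 0.04 to 0.64 in DMM joints and 0.0015 to 0.70 in sham joints at 6 weeks, against -1.09 to 0.29 in DMM joints and -0.55 to 0.27 in sham joints at 1 week. Muscle markers had a median of 0.66, with 6 of 6 higher and Mylpf, a myosin light chain, called (1.16 ± 0.26, adjusted p = 0.0487 in limma). Chondrocyte markers had a median of 0.82 with 7 of 9 higher and none called. That median was 0.07 after DMM (6 of 9 higher) and 1.86 after sham (7 of 9 higher). Without sham_6wk replicate 2 it was 1.21 after sham. The average over both operations thus lay mostly with the sham joints.

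The medians of osteoblast and osteocyte markers lay on the other side of 0. Of 9 osteoblast markers 7 were lower at 6 weeks (median -0.50, none called), as were 6 of 7 osteocyte markers (-0.20, none called). Without sham_6wk replicate 2 the medians were -0.52 (7 of 9 lower) for osteoblast and -0.04 (5 of 7 lower) for osteocyte markers. The osteoblast list ranged from -0.52 to 0.39 in DMM joints and -0.72 to 0.32 in sham joints at 6 weeks, against -0.05 to 0.76 in DMM joints and -0.32 to 0.30 in sham joints at 1 week. Macrophage and monocyte markers, the lineage osteoclasts come from, had a median of -0.10 with 7 of 12 lower and none called. Their median was 0.10 after DMM (6 of 12 lower) and -0.35 after sham (10 of 12 lower). Averaged without sham_6wk replicate 2 it was -0.0083, with 6 of 12 lower. Neutrophil markers had a median of -0.17 with 8 of 10 lower and none called. Without sham_6wk replicate 2, 8 erythroid, 6 platelet, 4 B cell and 2 muscle markers were called higher, against 3.4% of all genes. The part of these other cells in the osteoclast gene differences was not tested.

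Averaged over both operations and with all 16 arrays, the wider osteoclast programme leaned the same way with little that passed the test. Of 28 genes for differentiation signals and transcription factors 21 were lower at 6 weeks (median -0.22). Lower were also 8 of 10 fusion partners (-0.43), 15 of 19 other proton pump subunits (-0.20) and 9 of 11 acid, ion and vesicle partners (-0.34). Of 7 genes listed as matrix proteases beside Ctsk 6 were lower (-0.11), and of 14 podosome and sealing zone genes 12 (-0.19). The matrix protease list includes Cst3, which codes for cystatin C, an inhibitor of cathepsins and not a protease. After DMM alone the counts lower were 19, 7, 10, 9, 2 and 9 in the same order. Their medians were -0.19, -0.23, -0.12, -0.19, 0.08 and -0.05, so that the matrix protease list did not lean that way. Without sham_6wk replicate 2 the counts averaged over both operations were 22, 7, 12, 10, 4 and 11. The medians were then -0.18, -0.36, -0.16, -0.33, -0.02 and -0.11. With all 16 arrays and both operations averaged, 1 of these 89 genes was called lower and 0 higher, against 0.234% and 0.641% of all genes. That gene was Mmp9, gelatinase B, a protease of osteoclasts and neutrophils, with -0.80 ± 0.12 (adjusted p = 0.0347 in limma). No gene was called, and so the calls of Mmp9, Alas2 and Mylpf were lost, when any 1 of 10 of the 16 arrays was left out, with the array median as centre, with no filter on dim probes and on either slide alone. Without sham_6wk replicate 2, Mmp9 stood at -0.82 (0.0229), and Jdp2, Sirpa, Adam12, Sbno2, Plekhm1, Rab7, Mmp14 and Itgav were called lower as well, which makes 9 of 89, against 1.92% of all genes. Car2 was then the 1 gene of the 89 called higher, against 3.4% of all genes. Between DMM and sham none of the 89 was called at either time.

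**Figure D4:**
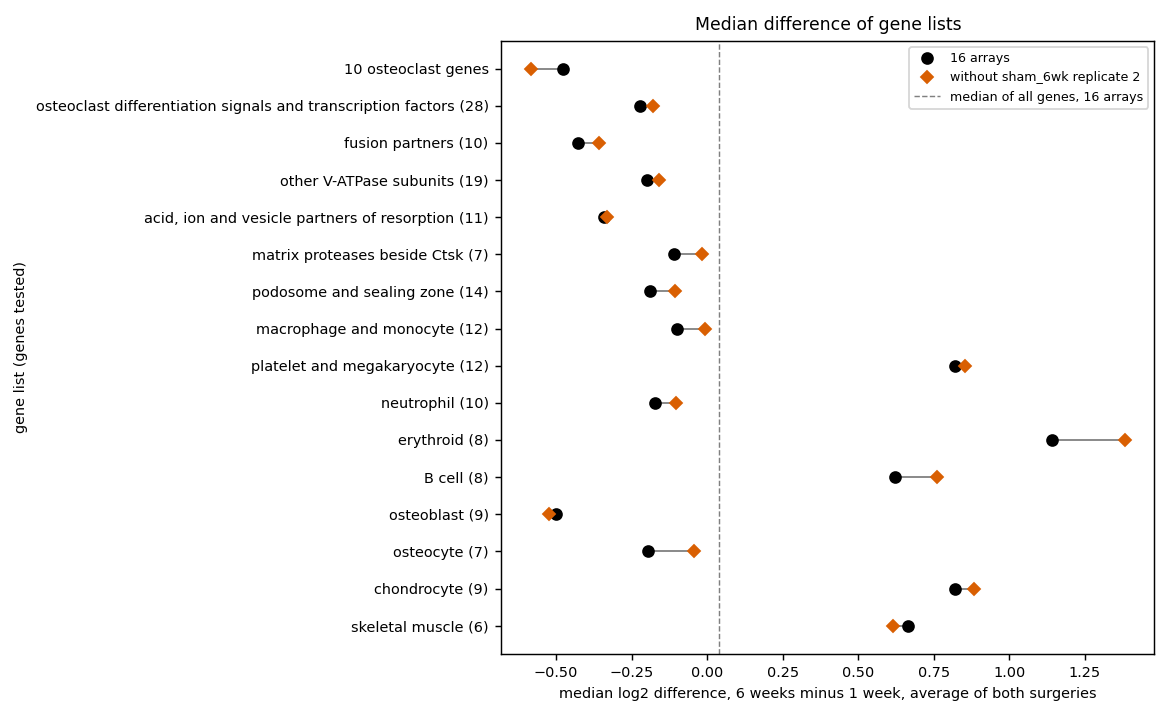
Median log2 difference, 6 weeks minus 1 week averaged over both operations, of the 10 osteoclast genes, of 6 pathway lists and of 9 cell marker lists, with the number of genes tested in brackets; circles are 16 arrays and diamonds are without sham_6wk replicate 2. The 10 genes, the fusion partners and the osteoblast markers lie farthest below the dashed median of all genes, and the erythroid, platelet and chondrocyte markers farthest above it.

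Partners and relatives of the 10 genes are given by name. The d1 isoform Atp6v0d1, found in most cells, had a time difference of -0.20 ± 0.25, and the a1 and a2 isoforms Atp6v0a1 and Atp6v0a2 had 0.17 ± 0.19 and -0.12 ± 0.13. Ostm1, the partner subunit of Clcn7, had -0.13 ± 0.13, and Slc4a2, the bicarbonate exchanger of the osteoclast's outer membrane, had 0.10 ± 0.28. Atp6v0d1 stood at 0.03, Atp6v0a1 at 0.00068, Atp6v0a2 at -0.20, Ostm1 at -0.08 and Slc4a2 at -0.14 without sham_6wk replicate 2. None of these was called, and their difference from Atp6v0d2, Tcirg1 or Clcn7 was not tested. Plekhm1, which guides lysosomes to the resorbing membrane, had -0.40 ± 0.13 (adjusted p = 0.124) and Snx10, a sorting nexin needed for resorption, -0.65 ± 0.21 (0.122) in limma, and without that array Plekhm1 was called lower (-0.47, 0.0291) and Snx10 was not called (-0.62, 0.102). Car2, the carbonic anhydrase that supplies the protons and is also abundant in red cells, stood on the other side at 0.97 ± 0.33 (0.154), and was called higher without sham_6wk replicate 2 (1.19, 0.0345).

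The regulators Nfatc1, the master transcription factor, and Csf1r, the receptor of the colony-stimulating factor, had -0.41 ± 0.13 (adjusted p = 0.113) and -0.34 ± 0.13 (0.210) in limma, and -0.35 (0.0735) and -0.31 (0.162) without sham_6wk replicate 2. Adam8, a membrane protease of fusing precursors, had -0.55 ± 0.25, Src, the kinase of the ruffled border, -0.34 ± 0.21, and the tetraspanin Cd9 0.09 ± 0.14, none called. With that array left out Adam8 stood at -0.37, Src at -0.48 and Cd9 at 0.15, again none called. The alpha V chain Itgav, Itgb3's partner in osteoclasts, had -0.72 ± 0.20 (0.0933), while Itga2b, its partner on platelets, had 0.86 ± 0.25 (0.102). Itgb3 itself, at 0.18, lay between them. Without sham_6wk replicate 2, Itgav was called lower (-0.78, 0.0424) and Itga2b was not called (0.76, 0.0877).

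Within groups, 9 of the 10 genes varied together from joint to joint. After each array's level was expressed as its deviation from its group mean, all 36 pairs of the 9 genes without Itgb3 had a positive Pearson's r over the 16 arrays, from 0.40 to 0.96 with a median of 0.74. The closest pairs were Ctsk with Atp6v0d2 (0.96), Ctsk with Dcstamp (0.94) and Ocstamp with Clcn7 (0.91). Without sham_6wk replicate 2 all 36 pairs were again positive, with a median of 0.78. Itgb3 followed the other 9 least, with a median r of 0.28 (0.17 to 0.63). Arrays share the section, the dissection and the scaling behind these values, and the correlations are descriptions.

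**Figure D5:**
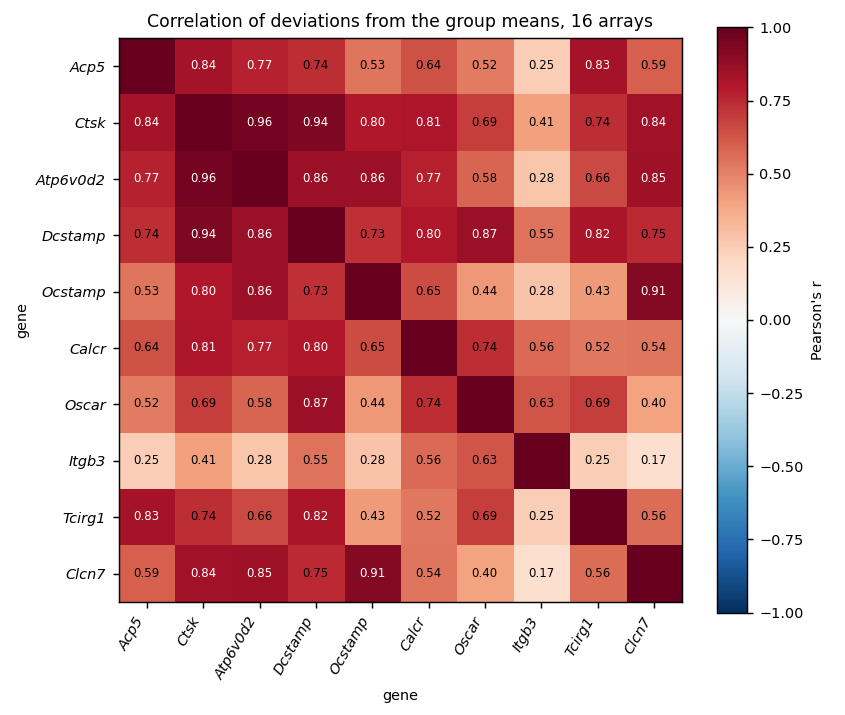
Pearson's r between the 10 genes of the deviations of 16 arrays from their group means, as colour and number. The row and the column of Itgb3 hold the palest cells on the whole, with a median of 0.28, while Ctsk reaches 0.96 with Atp6v0d2 and 0.94 with Dcstamp.

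Averaged over the 9 genes, the level centred on each gene's mean over the 16 arrays ranged from -0.74 to -0.04 in DMM joints and from -1.02 to 0.12 in sham joints at 6 weeks, against -0.41 to 1.07 in DMM joints and 0.02 to 0.76 in sham joints at 1 week. The 2 ends of the 1-week range were DMM_1wk replicates 2 and 1, joints of 1 operation at 1 time on the same slide. Pearson's r of the 9-gene mean with the pathway lists was taken over the 16 arrays, as deviations from group means. It was 0.91 for acid, ion and vesicle partners, 0.62 for other proton pump subunits and 0.52 for the matrix protease list with Cst3. For differentiation signals it was 0.50, for fusion partners 0.30 and for podosome and sealing zone genes 0.01. With sham_6wk replicate 2 left out these were 0.94, 0.77, 0.86, 0.91, 0.38 and 0.33 in the same order. Among the marker lists r was 0.50 for chondrocyte, 0.46 for osteoblast, 0.38 for osteocyte, 0.15 for B cell, 0.06 for erythroid, -0.10 for platelet, -0.11 for muscle, -0.14 for macrophage and -0.49 for neutrophil markers. Leaving out that array gave 0.41, 0.38, 0.54, 0.27, 0.37, -0.02, -0.08, 0.09 and -0.47 in the same order. The osteocyte list then had the highest value, so the order of the lists depends on that array. Itgb3 correlated with Itga2b at 0.59 (0.49 without sham_6wk replicate 2), with Itgav at 0.44 (0.32) and with the platelet list at 0.36 (0.68).

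Genes whose levels over the 16 arrays were most like the standardised mean of the 10 were sought among 22328 other genes well above background on all arrays. The first 8 were Bdh2, a short-chain dehydrogenase (r = 0.99), Gpr137b, a lysosomal membrane protein (0.98), Gpr137b-ps, a copy whose signal may share sequence with Gpr137b (0.98), Slc9b2, a sodium and proton exchanger (0.97), Ckb, brain-type creatine kinase (0.97), Msln, mesothelin (0.96), Slc6a8, the creatine transporter (0.95), and Pgpep1, a peptidase (0.95). Among the 10 genes themselves r with that mean ran from 0.24 for Itgb3 to 0.98 for Ctsk. Each of the 10 is part of that mean, which raises its r, so these values cannot be set beside those of the other genes. The likeness includes the difference between times, and Msln (-1.55 ± 0.41, adjusted p = 0.0777 in limma), Slc9b2 (-1.15 ± 0.35, 0.113) and Bdh2 (-0.89 ± 0.31, 0.164) were lower at 6 weeks without being called. Without sham_6wk replicate 2 the first 5 were the same genes, Slc9b2 standing second.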

How the data were processed

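Scanner files of 16 one-colour Agilent arrays were used; their intensity values (the processed signal, background-subtracted, per the file headers) were deposited per array, with flags for outlier spots and for signals well above background given by the same software. Per the submitters' processing notes limma 3.20.9 was used upstream; the deposited table of log2 values, an alternative here, correlated with the scanner log2 intensities at r = 0.993 to 0.998 within arrays (column medians 7.24 to 7.34), its scale thus being log2, and its exact normalization is not given in the sources used here.

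Spots marked as outliers were left out (342 probes dropped), spots of a probe averaged, and log2 intensities centred on each array's 75th percentile. Probes well above background on at least 4 arrays were kept, the brightest standing for its gene; 14.3% of spots held surrogate values set by the scanner software, and none was saturated. Group means were fitted with limma 3.58.1 (R 4.3.3; lmFit, contrasts.fit, eBayes; 12 residual and 3.01 prior degrees of freedom), two-sided, with Benjamini-Hochberg adjustment. The scripts were tested on simulated data. Figures used Python 3.11.15 and matplotlib 3.10.9.

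Groups and times come from the sample titles; replicate numbers only name arrays. Slides were tested as a block and alone. Alternatives covered scaling, background, filters, probe choice, slides and leaving out each array. The named genes are the 10, a list of 16 partners, any listed gene past the threshold and the 8 genes most like the 10. The members, lists and motifs were chosen with earlier results of these data known. The likeness measure is Pearson's r over 16 arrays. Promoter sequences are from RefSeq (GRCm38.p6), with no window used for Atp6v0d2, Dcstamp, Ocstamp and Itgb3.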

Additional observations from a re-analysis of the deposited data

Results flagged for a closer look

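The second Itgb3 probe (A_66_P126293) read 1.47 in sham_6wk replicate 2, against 0.04 to 0.14 in the other 3 sham joints of 6 weeks, a gap of 0.93 of the group's range, above the 95% limit of Dixon's test. The first Itgb3 probe was also highest in that joint, at 6.09 against 4.94 to 5.40. It was the 1 flag in 68 tests of the 17 probes in 4 groups, of which chance would give 3.4.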

How the results depend on the processing

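For the comparison of 6 weeks with 1 week averaged over both operations, 247 genes were called. The count was 0 with the array median as centre, 415 with normexp background and quantile normalization, 0 with no filter, 451 with probes well above background on all 16 arrays, 645 with the slide as a block, and 0 and 0 on slide 1 and slide 2 alone. With 1 array left out it ran from 0 to 1502. It was 0 for 10 of the 16 arrays, so that the calls of Mmp9, Alas2 and Mylpf were lost there too, 1 without sham_1wk replicate 1, 3 without DMM_6wk replicate 2, 311 without sham_1wk replicate 3, 490 without DMM_6wk replicate 3, 695 without DMM_1wk replicate 3 and 1502 without sham_6wk replicate 2. Of the 10 osteoclast genes, 1 was called in the authors' deposited table, 1 with the filter on all 16 arrays and 1 with the mean of a gene's probes, each time Calcr (the last with its dim second probe averaged in), and 0 to 3 with 1 array left out. The median of the 10 stayed between -0.70 and -0.33 under all alternatives and between -0.58 and -0.36 with 1 array left out (after DMM -0.71 to -0.42, after sham -0.66 to -0.26). The causes were not tested. Itgb3's difference was negative on slide 2 alone and positive under the other alternatives.

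Between DMM and sham none of the 10 was called under any alternative. With 1 array left out the median ran from -0.31 to 0.14 at 6 weeks, -0.20 to 0.29 at 1 week, -0.12 to 0.10 averaged over times, and -0.31 to 0.16 for the difference between times. Genes called ran from 0 to 1 at 6 weeks, 0 to 1 over time after sham and 0 to 27 over time after DMM, the last without DMM_1wk replicate 3. No paired analysis was possible because each mouse had the same operation on both knees and no label ties mice of different groups to one another. The 4 arrays a group limit what can be seen, and signals near background, such as the second probes of Calcr and Clcn7, have the least support.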
